A study of Mus musculus with 2 samples.

Results

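Heat shock and chaperonin genes were examined for Sap130 binding in E12.5 embryonic hearts of C57BL/6 mice. They were taken as every protein-coding gene of the RefSeq GRCm38.p6 table whose symbol is Hspa, Hspb, Hspd, Hspe, Hsph, Dnaja, Dnajb, Dnajc or Cct followed by a digit, or Hsp90 followed by a letter or digit. This gave 81 of the 21779 protein-coding genes used, in 9 families. The data were the peak summits of 1 ChIP library, made with a rabbit anti-Sap130 antibody (2 µg), which the authors called against 1 input DNA library made without antibody from hearts of the same strain and stage. Sap130 belongs to the Sin3 corepressor, which carries histone deacetylases, and the study asked which genes it targets. The material was heart as a whole, so binding in its different cell types cannot be told apart, and a list of summits holds no measure of expression against which the tissue label could be checked.

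Heat shock proteins are molecular chaperones, which keep other proteins folded. Hsp70 proteins (the Hspa genes) bind and release unfolded chains in a cycle driven by ATP, J-domain proteins (Dnaja, Dnajb and Dnajc) deliver clients to them and start ATP hydrolysis, and Hsp110 proteins such as Hsph1 exchange the nucleotide. Hsp90 acts later, on kinases, receptors and other clients. The mitochondrial chaperonin of Hspd1 and Hspe1 and the cytosolic chaperonin of the Cct genes enclose a client in a chamber, and the Cct ring folds actin and tubulin. Small heat shock proteins (Hspb) hold unfolded chains without ATP, and several are abundant in heart and skeletal muscle. Some of these genes are constantly active, some are induced by heat through the factor Hsf1, and some are expressed mainly in male germ cells.

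Most of these genes carried a Sap130 summit. A gene was counted as marked when a summit lay inside it or up to 1000 bp outside a boundary. Of the 81 members, 69 were marked (85.2%, exact 95% interval 75.6 to 92.1), beside 11972 of all 21779 protein-coding genes (55.0%). Within 1000 bp of a boundary, inside or outside, the counts were 64 members (79.0%, exact interval 68.5 to 87.3) and 48.4% of all genes. The remaining 5 marked members had summits only deeper inside, and all 5 were Dnajc genes. Summits of at least the median score were in reach of 52 members (64.2%), beside 36.0% of all genes, and summits in the top 25% of scores in reach of 38 members (46.9%), beside 19.5%. The score is the authors' −log10 of a p or q value and ran from 2.1 to 428 over the list, with its median at 33.3. A gene took the highest score in its reach. The marked members had a median score of 70.7 (quartiles 34.9 and 106), beside 48.9 (quartiles 23.9 and 78.6) for all marked protein-coding genes.

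**Figure D1:**
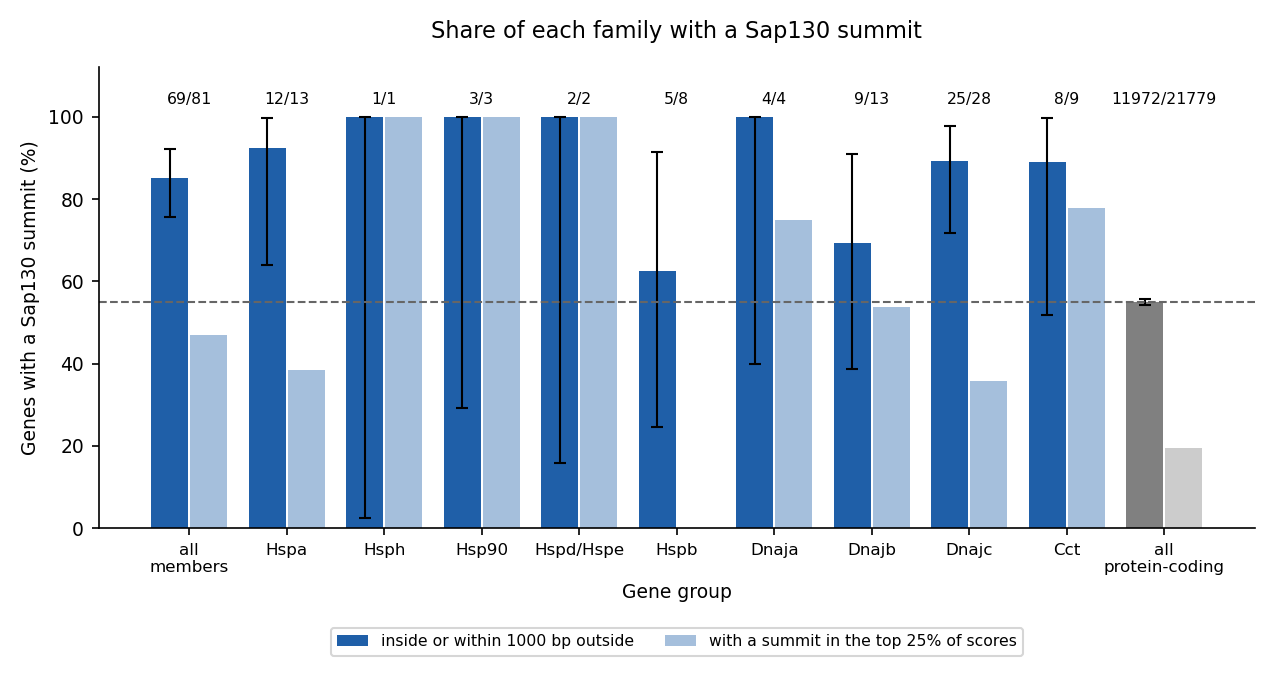
Percent of genes with a Sap130 summit in all members, in each family and in all protein-coding genes (vertical axis, %). Dark bars count a summit inside the gene or up to 1000 bp outside it, with exact 95% binomial intervals, pale bars count summits in the top 25% of scores, numbers give marked genes over genes, and the dashed line is the 55.0% of all protein-coding genes. Hspb has 5 of 8 genes marked and none with a summit in the top 25%.

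Shares and scores ranged widely over the families, which hold 1 to 28 genes each, so that the intervals of their shares overlapped. All 3 Hsp90 genes, all 4 Dnaja genes, Hsph1, Hspd1 and Hspe1 were marked. Marks were also found at 12 of 13 Hspa genes (92.3%, exact interval 64.0 to 99.8), 25 of 28 Dnajc genes (89.3%, 71.8 to 97.7) and 8 of 9 Cct genes (88.9%, 51.8 to 99.7). The shares were lower for Dnajb, with 9 of 13 (69.2%, 38.6 to 90.9), and Hspb, with 5 of 8 (62.5%, 24.5 to 91.5). Median scores of the marked members were 191 for Hsp90, 99.6 for Cct, 96.0 for Dnaja, 71.7 for Dnajb, 57.4 for Dnajc, 47.5 for Hspa and 16.0 for Hspb. No Hspb gene had a summit of at least the median score, whereas all 8 marked Cct genes did.

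**Figure D2:**
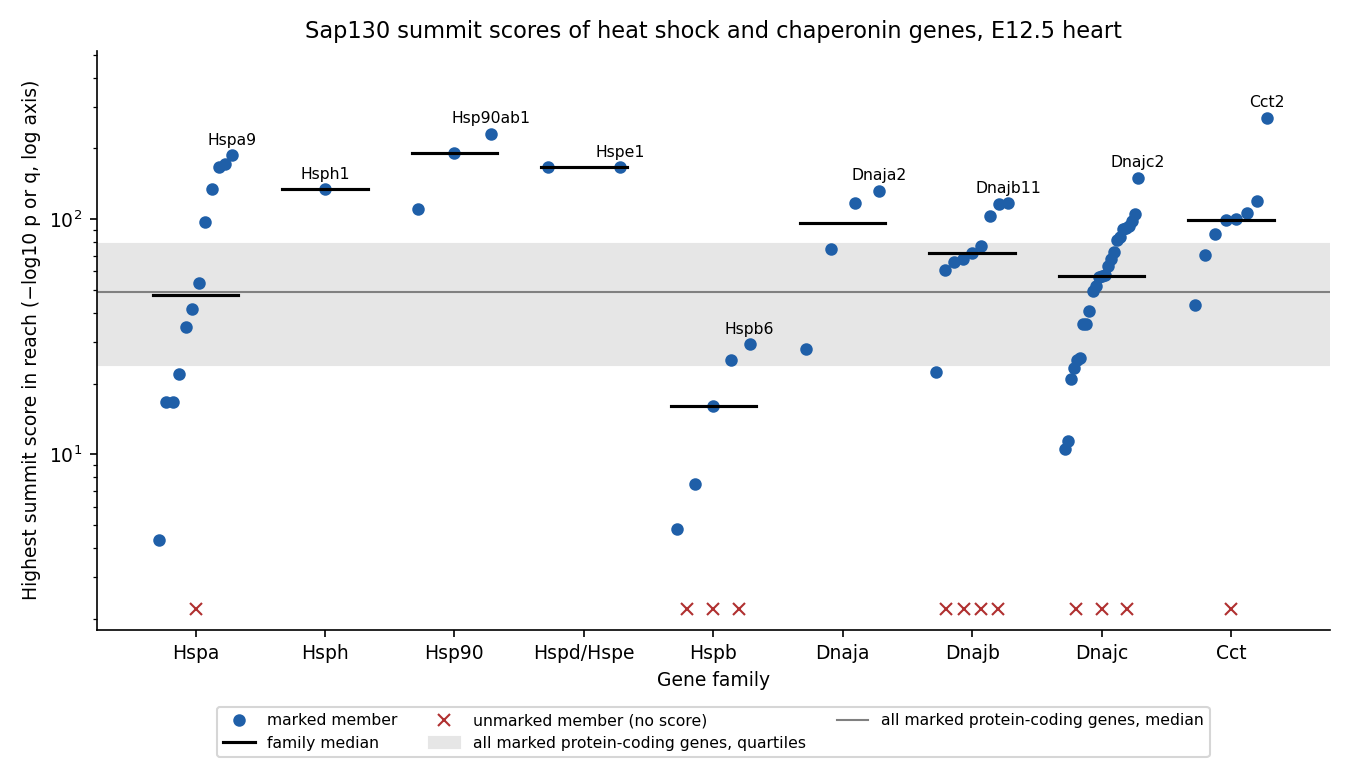
Highest Sap130 summit score in reach of each member (vertical axis, −log10 p or q on a log scale) by family. Points are marked members with the highest of each family named, black bars are family medians, crosses are unmarked members, and the grey band and line give the quartiles (23.9 and 78.6) and median (48.9) of all marked protein-coding genes. Hspb lies low, at 4.80 to 29.4, and Cct2 highest, at 270.

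Hsp90 genes of the cytosol and of the endoplasmic reticulum all had high scores. Hsp90ab1, the constantly expressed cytosolic form, had 1 summit of score 231 on chromosome 17 (gene 45567778 to 45573261), 191 bp inside the boundary. Hsp90aa1, the heat-inducible cytosolic form, had a summit of 191 lying 293 bp inside, and a weaker one of 58.6 lying 390 bp outside. Hsp90b1, which encodes the reticulum form GRP94, had 111 at 159 bp inside and 11.1 at 484 bp outside, both in reach of the neighbouring gene Ttc41 too. These values put the 3 genes at percentiles 99.7, 99.0 and 90.1 of all marked protein-coding genes.

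Scores within the Hsp70 family spanned a wide range. The highest were 187 at Hspa9, the mitochondrial Hsp70 that pulls proteins in during import, 172 at Hspa12a, a distant relative, and 167 at Hspa8, the constantly expressed cytosolic Hsc70. The Hspa12a summit lay 144 bp inside the gene and was also in reach of Eno4, so that it cannot be given to 1 of them. Hspa5, the reticulum chaperone BiP, had 134, and Hspa4, a nucleotide exchange factor of the Hsp110 kind, had 96.8. Lower scores were found at Hspa14, a partner of ribosome-bound chaperones (53.5, shared with Cdnf), Hspa4l (41.5), Hspa13 (34.9) and Hspa2, a gene of spermatocytes (22.0). Hspa12b was the 1 unmarked Hspa gene, with the nearest summit 13904 bp outside.

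The classic heat-inducible Hsp70 genes carried weak summits that lay upstream. Hspa1a and Hspa1b, neighbours on chromosome 17 that encode nearly the same protein, had scores of 16.7 and 4.34, at 314 and 319 bp upstream of their starts. The Hspa1a summit lay between it and Hspa1l, a germ cell relative, and was in reach of both. The promoter windows of Hspa1a and Hspa1b were identical at 296 of 300 positions aligned without gaps, and reads that match both copies may have been dropped or split. How such reads were treated is not given in the sources used here, so these 2 scores are uncertain. Hspb1, the inducible small heat shock gene (chromosome 5, 135887919 to 135889563), was unmarked, its nearest summit lying 44886 bp outside. Higher scores than these were found at Hsp90aa1 (191, as above), Hsph1 (134) and Dnajb1 (76.9), the main J-domain partner of inducible Hsp70, which heat also induces. These inducible genes were picked by hand with the values known, and other genes that heat induces may be left out.

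The promoter windows of Hspa1a and Hspb1 are given as those of inducible genes with a weak mark and with none. In all sequences here, from the RefSeq promoter table (GRCm38.p6, 250 bases before the annotated start and 50 after it, in the direction of the gene), capitals mark the heat shock element core (GAANNTTC or TTCNNGAA), the CCAAT box on either strand, and the endoplasmic reticulum stress element.
Hspa1a (chr17:34972107-34972406, minus strand): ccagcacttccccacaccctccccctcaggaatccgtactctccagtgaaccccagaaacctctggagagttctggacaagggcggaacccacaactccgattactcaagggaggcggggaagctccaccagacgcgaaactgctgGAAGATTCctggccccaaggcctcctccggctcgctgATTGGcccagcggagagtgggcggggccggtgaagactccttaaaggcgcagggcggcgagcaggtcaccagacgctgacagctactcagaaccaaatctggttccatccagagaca
Hspb1 (chr5:135887669-135887968, plus strand): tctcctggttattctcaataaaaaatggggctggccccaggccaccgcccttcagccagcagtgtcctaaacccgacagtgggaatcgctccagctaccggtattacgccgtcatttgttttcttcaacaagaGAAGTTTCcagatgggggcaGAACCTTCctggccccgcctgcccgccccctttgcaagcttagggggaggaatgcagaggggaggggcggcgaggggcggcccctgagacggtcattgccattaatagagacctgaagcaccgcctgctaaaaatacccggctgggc
Hspa1a had 1 match to the heat shock element core and 15 CpG dinucleotides in the window, and Hspb1 had 2 matches and 14.

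The mitochondrial chaperonin genes shared 1 strong summit. Hspd1 (Hsp60) and Hspe1 (Hsp10), whose proteins form the chamber and its lid, lie head to head on chromosome 1 and overlap by 96 bp. The single summit, of score 166 at position 55087641, lay 602 bp inside Hspd1 and 507 bp outside Hspe1, on the Hspd1 side. It cannot be given to 1 of the pair. Their promoter windows overlap by 285 bases, and the window of Hspd1 is shown because it holds the heat shock element matches of both genes.
Hspd1 (chr1:55087883-55088182, minus strand): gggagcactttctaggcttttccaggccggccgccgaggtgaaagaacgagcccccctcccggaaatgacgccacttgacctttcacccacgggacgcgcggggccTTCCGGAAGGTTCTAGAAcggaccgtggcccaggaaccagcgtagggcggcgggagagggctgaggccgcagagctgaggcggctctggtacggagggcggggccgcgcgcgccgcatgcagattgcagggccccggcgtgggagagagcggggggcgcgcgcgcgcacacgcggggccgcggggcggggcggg
It had 3 matches to the heat shock element core, which join in 1 run, and 39 CpG dinucleotides. Other mitochondrial members were Dnaja3, which encodes the matrix J-protein Tid1 (74.8), Dnajc15 and Dnajc19, of the import motor (57.4 and 25.7), Dnajc11 (91.5) and Dnajc30 (40.5, shared with Bud23). With Hspa9 this made 8 marked of the 8 members taken as mitochondrial, beside 55.0% of all protein-coding genes, with a median score of 83.1.

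The members taken as those of the endoplasmic reticulum were also all marked, 10 of 10, beside 55.0% of all protein-coding genes. Their scores ran from 22.4 to 134 with a median of 92.5. They were Hspa5, Hsp90b1, Hspa13 and the J-domain genes Dnajb9, Dnajb11, Dnajb12, Dnajb14, Dnajc1, Dnajc3 and Dnajc10. This list was made by hand and may leave out other members of the reticulum. Dnajb11, a BiP partner in folding, had 117 (shared with Tbccd1) and Dnajb9, which brings BiP to the stress sensor Ire1, 116. Dnajb12, of the reticulum membrane, had 103, and its relative Dnajb14 had 22.4. Dnajc3 had 81.7, Dnajc1 had 56.7 and Dnajc10, a disulfide reductase, had 49.7. The windows of Hspa5 and Hsp90b1 are shown because both hold the endoplasmic reticulum stress element, through which unfolded proteins induce genes.
Hspa5 (chr2:34771840-34772139, plus strand): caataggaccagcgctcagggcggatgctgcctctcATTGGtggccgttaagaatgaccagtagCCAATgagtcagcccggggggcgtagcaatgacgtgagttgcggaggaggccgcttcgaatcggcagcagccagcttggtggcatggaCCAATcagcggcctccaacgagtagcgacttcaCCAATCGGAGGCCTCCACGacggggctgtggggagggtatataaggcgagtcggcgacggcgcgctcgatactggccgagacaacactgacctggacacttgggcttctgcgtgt
Hsp90b1 (chr10:86705395-86705694, minus strand): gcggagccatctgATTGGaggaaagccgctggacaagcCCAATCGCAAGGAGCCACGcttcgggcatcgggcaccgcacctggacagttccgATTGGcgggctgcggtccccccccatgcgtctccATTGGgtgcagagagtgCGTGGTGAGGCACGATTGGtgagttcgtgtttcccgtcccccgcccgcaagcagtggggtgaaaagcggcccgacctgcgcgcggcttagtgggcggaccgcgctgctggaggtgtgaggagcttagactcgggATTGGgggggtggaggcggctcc
Hspa5 held 1 such element and Hsp90b1 held 2, among 4 and 6 CCAAT boxes. The element was in 3 of the 66 member windows (4.55%, exact interval 0.947 to 12.7), the third being that of Dnajc3, beside 0.166% of all 17492 protein-coding windows.

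All Cct genes with a broad role in the cell were marked. Cct proteins form the ring-shaped chaperonin of the cytosol. Cct2 had the highest score of all 81 members, 270 (percentile 99.9), from 1 summit 261 bp inside the gene (chromosome 10, 117050997 to 117063852). The others were Cct7 (120), Cct6a (106), Cct4 (100), Cct5 (98.8), Cct8 (86.2) and Cct3 (70.7). Cct6b, a testis form of Cct6a, had 43.1 from a summit 225 bp outside it and in reach of Zfp830, and Cct8l1 was unmarked, with the nearest 12015 bp outside. Top summits were shared with a neighbouring gene at 5 of the 8 marked Cct genes (62.5%): Cct3, Cct5, Cct6a, Cct6b and Cct7. Among all marked protein-coding genes the share was 25.4%. Without shared summits 3 of 9 stayed marked (33.3%), beside 42.4% of all protein-coding genes. Tcp1, the remaining subunit of the ring, has a symbol outside the rule and had 87.3, shared with Mrpl18. The window of Cct2 is shown as that of the member with the highest score.
Cct2 (chr10:117063803-117064102, minus strand): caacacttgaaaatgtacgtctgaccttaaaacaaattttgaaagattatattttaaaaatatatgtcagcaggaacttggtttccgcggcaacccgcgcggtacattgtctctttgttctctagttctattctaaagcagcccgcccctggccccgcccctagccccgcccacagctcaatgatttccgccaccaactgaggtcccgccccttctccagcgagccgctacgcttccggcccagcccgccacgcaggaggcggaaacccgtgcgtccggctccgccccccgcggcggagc
It held 25 CpG dinucleotides, 5 GC boxes and no match to the marked motifs.

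J-domain genes of the Dnaja kind all carried a summit. Dnaja2 and Dnaja1, cytosolic partners of Hsc70, had 132 and 117, Dnaja3 had 74.8 and Dnaja4 had 28.1. In Dnajb, besides the reticulum genes, scores were 76.9 at Dnajb1, 71.7 at Dnajb4 (shared with Fubp1), 67.9 at Dnajb5, 66.0 at Dnajb2 and 60.6 at Dnajb6, a suppressor of protein aggregation. These 5 lie within a narrow range, while the 4 unmarked Dnajb genes, Dnajb3, Dnajb7, Dnajb8 and Dnajb13, had their nearest summits 71647, 7573, 22528 and 9576 bp outside.

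The Dnajc genes are the most varied of the families in function and ran from 10.5 to 150 in score. Dnajc2, which works with Hspa14 at the ribosome, had the highest, 150, shared with Psmc2. Next were Dnajc25 (105), Dnajc16 (98.6), Dnajc9, a histone chaperone (93.2), Dnajc11 (91.5) and Dnajc5, the cysteine string protein of vesicles (90.9). Dnajc8 and Dnajc17, linked to splicing, had 84.3 and 36.0, both shared with a neighbour, and Dnajc21, of ribosome maturation, had 51.8. The endosomal gene Dnajc13 had 72.4. Among the rest, Dnajc14 and Dnajc7 had 63.5 and 57.8, both shared with a neighbour, Dnajc28 had 35.9, Dnajc27 had 25.3 and Dnajc24, of diphthamide synthesis, had 23.2. Dnajc4 had 3 summits, the highest of 67.6 lying outside the end far from its start and in reach of Vegfb, and 1 of 18.4 lying 167 bp downstream of a start. The lowest scores were 20.9 at Dnajc18, 11.4 at Dnajc6 (auxilin, which uncoats clathrin vesicles) and 10.5 at Dnajc12. Dnajc5b, Dnajc5g and Dnajc22 were unmarked, with summits no nearer than 17691, 41881 and 21630 bp.

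The 5 Dnajc genes with summits only deep inside were Dnajc1, Dnajc5, Dnajc6, Dnajc18 and Dnajc25. Their summits lay 1506, 1860, 54002, 5447 and 8499 bp from the nearer boundary. In the 3 of them with an entry in the promoter table, the summit was close to an annotated start inside the gene: 237 bp downstream in Dnajc1, 56 bp in Dnajc6 and 105 bp in Dnajc25. Dnajc5 and Dnajc18 have no entry there.

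The small heat shock genes had low summit scores. Their marked share of 62.5% stands beside 55.0% of all protein-coding genes. Of the 5 marked genes 3 had 2 or more summits (60.0%), beside 28.9% of all marked protein-coding genes. Hspb6, of the heart and smooth muscle protein Hsp20, had 3 summits, the highest of 29.4 lying 372 bp outside the gene and in reach of Proser3. Hspb11, which despite its name encodes the intraflagellar transport protein Ift25, had 25.3, shared with Lrrc42. Hspb7, the cardiovascular form, had 16.0 at 1167 bp inside the gene, and Hspb8, a partner of Bag3, had 4.80. Hspb2, which neighbours Cryab, had 7.49 from a summit 973 bp outside, in reach of Cryab and the mark nearest to the limit of 1000 bp. Hspb3, another muscle form, was unmarked, with the nearest 44537 bp outside. Hspb9, a germ cell gene, had none, with the nearest 1620 bp outside, the closest miss of all members. Of the 6 genes known from muscle, Hspb1, Hspb2, Hspb3, Hspb6, Hspb7 and Hspb8, 4 were marked (66.7%, exact interval 22.3 to 95.7, beside 55.0% of all protein-coding genes), with scores from 4.80 to 29.4 and a median of 11.7. These genes are short: the Hspb median length was 2277 bp, beside 17217 bp for all protein-coding genes, and the part of length in their marks was not tested.

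Germ cell members made up much of the unmarked set. Among 9 genes known mainly from male germ cells, 3 were marked (33.3%, beside 55.0% of all protein-coding genes): Cct6b (43.1), Hspa2 (22.0) and Hspa1l (16.7, shared with Hspa1a). The other 6, Dnajb3, Dnajb8, Dnajb13, Dnajc5b, Dnajc5g and Hspb9, account for 6 of the 12 unmarked members. This grouping, like those by compartment, was made with the values known and is a description. The 12 unmarked members had a median length of 1803 bp and the 69 marked ones of 18184 bp. For all protein-coding genes these medians were 9452 and 25354 bp.

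Summits lay just downstream of the gene start in most members. Among marked members with exactly 1 annotated start in the promoter table (n = 39), the top summit was 0 to 500 bp downstream in 29 (74.4%), beside 72.5% of 7643 marked protein-coding genes. The median position was 180 bp downstream for members (quartiles 116 and 219) and 189 bp for all genes (quartiles 118 and 265). Upstream positions, up to 1000 bp away, were found for 8 members (20.5%) and 13.8% of all genes. Among these members, the top summits of Hspe1, Dnajc17, Cct7, Cct6b, Hspa1a and Hspa1l were also in reach of another protein-coding gene. Which gene such a summit belongs to cannot be told, and how often this held among all genes was not counted. In the Hspa family 4 of 8 were upstream of the annotated start, namely Hspa1a and Hspa1l, which share 1 summit, Hspa1b and Hspa2. The Hspa2 summit lay 512 bp upstream of the start used but 46 bp inside the gene boundary. In the Dnajc family 14 of 15 were downstream and 1, Dnajc17, upstream.

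**Figure D3:**
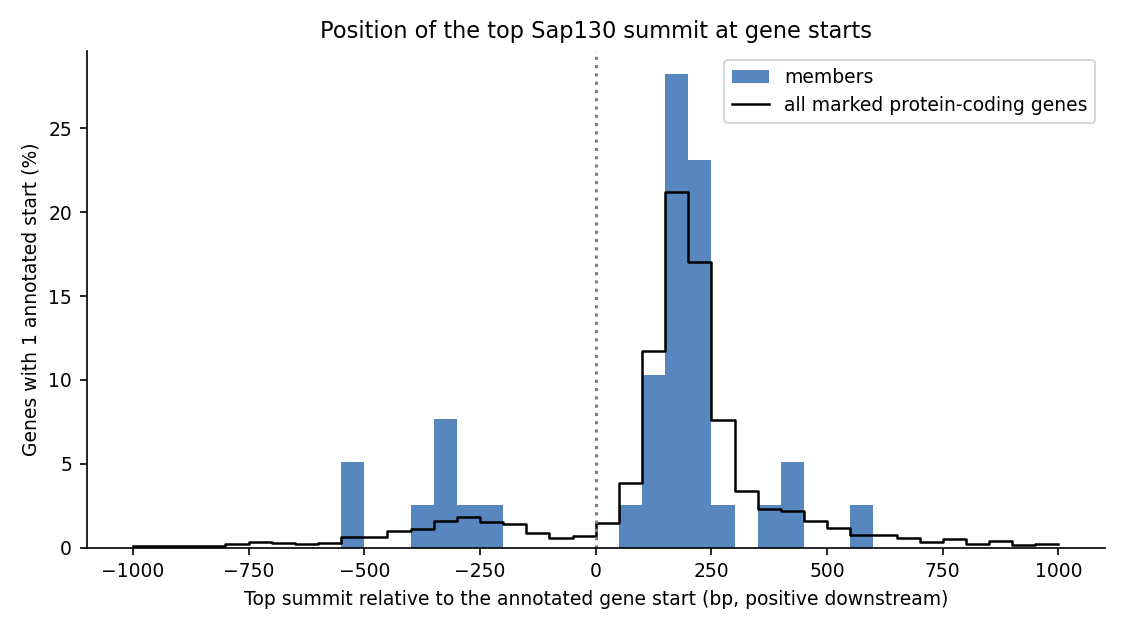
Distance from the annotated gene start to the top Sap130 summit (horizontal axis, bp, positive downstream, bins of 50 bp), as percent of marked genes with 1 annotated start. Filled bars are the 39 members and the line is all 7643 protein-coding genes. Both peak in the bin from 150 to 200 bp downstream, with 28.2% of members and 21.2% of all genes.

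Some members had a summit on each side of the start. Such a pair, with both summits within 1000 bp of the same start, was present at 15 of the 56 marked members with a promoter entry (26.8%), beside 15.4% of 9647 marked protein-coding genes. The summits of a pair were 473 to 877 bp apart in members, with a median of 643 bp, and a median of 639 bp in all genes. The downstream summit had the higher score in 12 of the 15 (80.0%), and in 70.7% of the pairs of all genes. At Hspa5 the downstream and upstream scores were 134 and 46.5, at Cct5 98.8 and 41.7, and at Dnajb1 76.9 and 6.50. The order was the opposite at Dnajb4 (64.5 and 71.7), Dnajc17 (20.1 and 36.0) and Hspb6 (11.7 and 29.4). At these genes the upstream summit was also in reach of a neighbour, Fubp1, Zfyve19 and Proser3 in turn. The downstream summit was in reach of another gene too. Both summits of the pair were likewise in reach of another gene at Hspa14, Cct3, Hspb11, Hsp90b1, Cct5, Dnajb11 and Dnajc4. Which gene such a summit belongs to cannot be told, and how often this held in the pairs of all genes was not counted.

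Promoter windows held more CpG dinucleotides in marked than in unmarked members, by the median. Of the 81 members, 66 had an entry, and 1 window was used for each gene. In marked genes it was that of the start chosen by the top summit, and in unmarked genes that of the most upstream start. The part of this choice in the counts was not tested. The 56 marked members had a median of 25 CpG dinucleotides in 300 bases (quartiles 18 and 33.5), and the 10 unmarked ones had 11 (quartiles 8.25 and 14.8). The median was 23 for marked protein-coding genes and 14 for all 17492. Counts in members overlapped between 6 and 19, where marked genes such as Hspb7 (6), Dnajc24 (7) and Hspa1l (11) lay beside unmarked ones such as Hspa12b and Dnajb3 (19 each). GC boxes (GGGCGG, both strands) were in 42 of the 56 marked windows (75%) and 4 of the 10 unmarked ones, beside 69.8% of the windows of marked protein-coding genes and 47.5% of all windows.

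**Figure D4:**
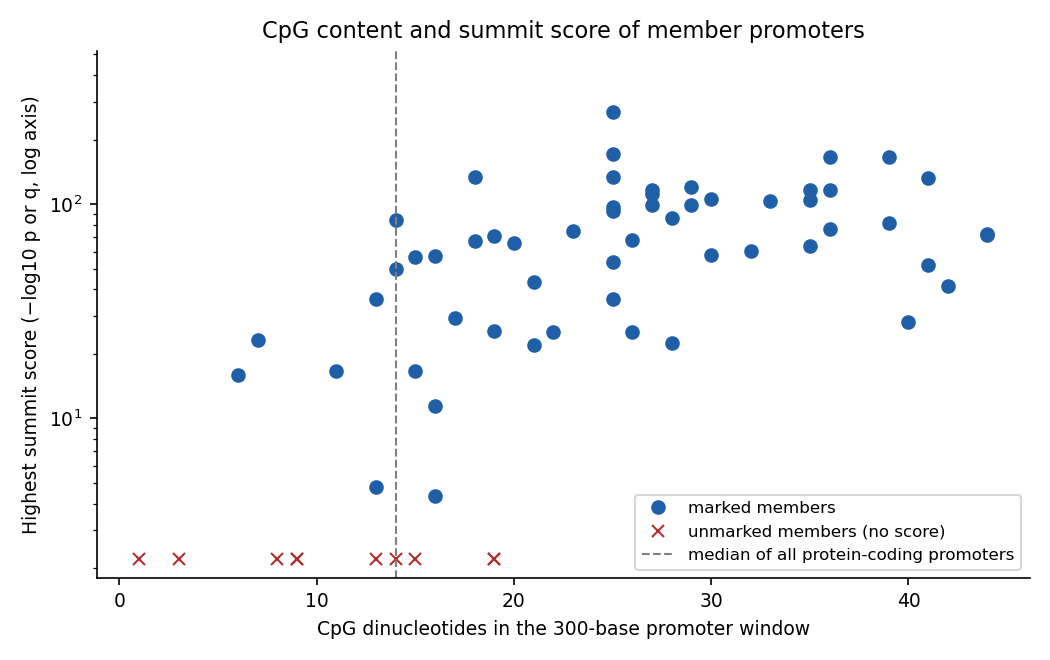
CpG dinucleotides in the 300-base promoter window (horizontal axis, count) and highest summit score (vertical axis, −log10 p or q on a log scale) for the 66 members with an entry. Circles are marked members, crosses unmarked ones, and the dashed line is the median of 14 in all protein-coding windows. No unmarked member has more than 19 CpG dinucleotides.

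Heat shock element cores were found in both marked and unmarked members. At least 1 match in either phase was present in 16 of 66 windows (24.2%, exact interval 14.5 to 36.4), beside 13.7% of all windows. Among marked members 12 of 56 had a match in either phase (21.4%, exact interval 11.6 to 34.4), beside 10.7% of marked protein-coding genes: Hspd1, Hspe1, Hsph1, Hspa1a, Hspa1b, Hspb8, Dnaja1, Dnaja4, Dnajb6, Dnajc10, Dnajc27 and Cct6a. The windows of Hspd1 and Hspe1 overlap by 285 bases and hold the same matches, and those of Hspa1a and Hspa1b are 98.7% identical. The genes of each pair are therefore not independent counts, though the intervals treat them so. Among unmarked members the count was 4 of 10 (exact interval 12.2 to 73.8): Hspb1, Hspb3, Dnajc5g and Cct8l1. The share among unmarked protein-coding genes was not computed. CCAAT boxes were in 26 of 66 windows (39.4%), beside 38.8% of all. ETS cores (CCGGAAG) were in 14 member windows (21.2%) and 12.3% of all. They were in 14 of the 56 marked members (25%, exact interval 14.4 to 38.4), beside 19.6% of marked protein-coding genes, and in 0 of the 10 unmarked members (interval 0 to 30.8). TATA boxes (TATAAA) were in 3 (4.55%) and 13.1%, E-boxes (CACGTG) in 5 (7.58%) and 7.99%, and cyclic AMP elements (TGACGTCA) in 1 (1.52%) and 2.37%. Among marked genes alone, TATA boxes were in 2 of the 56 members (3.57%, exact interval 0.435 to 12.3), beside 5.79% of protein-coding genes. Matches of all motifs were counted on both strands, the stress element includes a CCAAT box, and a match does not show a bound site.

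Genes that work with these chaperones were mostly marked too. Of 54 co-chaperones, regulators and relatives with symbols outside the rule, 50 were marked (92.6%, exact interval 82.1 to 97.9), beside 55.0% of all protein-coding genes. Their scores had a median of 71.3, beside 48.9 for all marked genes. The highest was Hsf1, the master regulator of the heat shock response, with 226 from a summit 251 bp outside the gene and in reach of Bop1 too. Next were Pfdn6, of the prefoldin that feeds the Cct ring (216, shared with Wdr46), the Hsp90-bound phosphatase gene Ppp5c (164), the Hsp90 partner p23 gene Ptges3 (140) and the reticulum Hsp70 relative Hyou1 (138). Trap1, the mitochondrial Hsp90, had 136, Bag6 had 130 and Sec63, a J-protein of the translocon, had 123. Hsf2 had 36.5 from a summit 2845 bp inside the gene and 226 bp downstream of an annotated start. The unmarked genes were Hsf4 and Cryaa, known from the lens, Hsf5 and Pdcl2, known from the testis. Cryab, the small heat shock gene of heart and lens, had 10.4, in the range of the Hspb genes.

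These values come from 1 ChIP library with no replicate and of unknown depth. Intervals treat genes as independent and cover counting error only, and no difference between families or from the other genes was tested.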

How the data were processed

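ChIP-seq was done on mouse E12.5 hearts with 1 Sap130 library and 1 input library. Bowtie 1.1.2, MACS2 2.1.0.20140616 and build GRCm38 (mm10) are named in the submitters' processing notes; how both were set, and how duplicates were handled, is not given in the sources used here. Summits were what the authors deposited: 14886 entries of 1 base, each with a score taken as −log10 of either a p-value or a q-value (not settled), used to rank and filter summits within the list. The 5 mitochondrial summits were left out. Read depth is unknown.

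Genes came from the RefSeq GRCm38.p6 table: 394 genes, 121 of them protein-coding, were left out as mitochondrial, unplaced or (Y aside) starting before 3 Mb. Starts and strand came from the RefSeq promoter table. Where a gene had several starts, the nearest start up to 1000 bp upstream of the summit was used, else the nearest; signed positions were summarised over genes with 1 start. Unmarked genes took the most upstream start. Shares carry exact (Clopper-Pearson) 95% intervals. No test was made.

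Members and lists were chosen with earlier results of these data known. All members could be named; larger families by highest and lowest score and by absence of a mark. The windows of Hspa1a and Hspa5 were chosen after their values were seen. Computation used Python 3.11.15, pandas 2.3.3, numpy 2.4.6, matplotlib 3.10.9 and scipy 1.17.1.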

Additional observations from a re-analysis of the deposited data

How the results depend on the processing

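Of 183 values recomputed under other settings, 146 stayed within the 95% interval of the reported value. Small families have wide intervals (24.5 to 91.5 for Hspb, 29.2 to 100 for Hsp90), which few values could leave. The count is therefore not a measure of stability. Merging summits within 500 bp and using the 250 bases before the start moved none outside it. With summits of at least the median score, members were marked in 64.2%, Hspa in 61.5%, Dnajc in 67.9%, Hspb in 0%, the co-chaperones in 77.8% and all genes in 36.0% (median score 68.4), and at a gene end 53.8% of Hspa and 0% of Hspb were marked. With the top 25% of scores the shares were 46.9% of members (median score 104), 38.5% of Hspa, 35.7% of Dnajc, 0% of Hspb, 53.7% of co-chaperones and 19.5% of all genes (median 91.5), and at a gene end 38.5% of Hspa, 28.6% of Dnajc and 0% of Hspb. Both settings use fewer summits by construction. With shared summits (those that 2 or more genes reach) left out, the shares were 58.0% of members, 64.3% of Dnajc, 33.3% of Cct, 0% of Hspd and Hspe, 70.4% of co-chaperones and 42.4% of all genes (median 44.2), and at a gene end 61.5% of Hspa, 46.4% of Dnajc, 33.3% of Cct and 0% of Hspd and Hspe. Within 1000 bp of a boundary alone, Dnajc had 71.4% and all genes 48.4%. A reach of 500 bp left 0% of Hspd and Hspe at a gene end. A reach of 2500 bp gave 55.9% of all genes (median 50). Of curated genes, olfactory and vomeronasal receptors aside, 60.7% were marked. The members as a whole stood above all genes in share under each of these settings; Cct, Hspb and the Hspd and Hspe pair did not in each. Depth is unknown, so weak binding at unmarked genes may not have been detectable.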

Other observations

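Pseudogenes named after these families carried no summit, and few pseudogenes of any name did. The RefSeq table lists 17, among them copies of Hspd1, Hspe1, Hspa9, Dnaja1 and Cct3, and 0 of 17 had a summit inside or within 1000 bp, beside 61 of all 9854 pseudogenes (0.619%). A summit list cannot show whether reads that match a gene and its copy were dropped or assigned to the gene.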
